A study of Homo sapiens with 8 samples.

Results

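The regions described here are the wide stretches of human DNA that were recovered with 1 of 3 RNA oligos and listed for neither of the other oligos. A region was taken when it spanned 1000 bp or more and shared no base, at a minimum overlap of 1 bp, with a captured region of either other oligo. The rule gave 2816 of 268071 captured regions. Of these, 819 came from the MEG3 TFR1 list, 55 from the MEG3 TFR2 list and 1942 from the GATA6-AS TFR1 list, and all lay on the autosomes. RNA-free, sonicated genomic DNA of H1, a human embryonic stem cell line, had been mixed in the test tube with a biotinylated oligo or with none, and the DNA held on streptavidin beads was sequenced. The 4 groups were MEG3 TFR1, MEG3 TFR2, GATA6-AS TFR1 and no oligo, with 2 libraries each. All groups thus shared naked DNA of 1 cell line, with no chromatin, no protein and no full-length RNA, and the same pair of no-oligo libraries stood behind every list. Each region carried the authors' deposited log2 ratio of oligo over no oligo, a single value for the region with no value per library, so the spread between libraries and the read depth are unknown. Every comparison below is a description of these lists, and no test over samples was possible.

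MEG3 is a maternally expressed long noncoding RNA of an imprinted domain, studied as a tumour suppressor and for its recruitment to genes of the TGF-beta pathway. GATA6-AS is transcribed antisense to GATA6, a transcription factor of endoderm and heart. An RNA can lie in the major groove of double-stranded DNA and pair by Hoogsteen bonds with the purine strand, which forms a triplex. Such binding favours long runs of purines on one DNA strand, which read as runs of pyrimidines on the other.

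Promoter sequence shows what kind of DNA a wide region can hold. RefSeq gives 300-bp promoter windows on GRCh38.p14, from 250 bp before to 50 bp after a transcription start, and 23 of them lay whole inside a MEG3 TFR1 region, none inside a MEG3 TFR2 region and 153 inside a GATA6-AS TFR1 region, out of 34943 windows. The windows in the widest such regions are printed 5′ to 3′ on the strand of the gene, with the longest unbroken run of purines or of pyrimidines in capitals. The first is that of MUC4, a membrane mucin, at chr3:195811880-195812179 on the minus strand, in a MEG3 TFR1 region of 1600 bp with a log2 ratio of 1.40. The next is that of LOC101929347 at chr10:77890129-77890428 on the plus strand, in a MEG3 TFR1 region of 1550 bp with a log2 ratio of 0.76. BCL2L12, a BCL2-like protein, follows at chr19:49664892-49665191 on the plus strand, in a GATA6-AS TFR1 region of 2500 bp with a log2 ratio of 1.24. HPN, the serine protease hepsin, is at chr19:35041471-35041770 on the plus strand, in a GATA6-AS TFR1 region of 2300 bp with a log2 ratio of 1.85.
MUC4: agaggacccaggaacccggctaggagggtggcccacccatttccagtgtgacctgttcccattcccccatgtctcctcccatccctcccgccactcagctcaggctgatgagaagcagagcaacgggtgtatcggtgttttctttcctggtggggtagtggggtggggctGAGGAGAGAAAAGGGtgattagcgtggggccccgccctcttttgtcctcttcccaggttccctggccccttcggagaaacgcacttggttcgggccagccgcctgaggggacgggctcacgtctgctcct
LOC101929347: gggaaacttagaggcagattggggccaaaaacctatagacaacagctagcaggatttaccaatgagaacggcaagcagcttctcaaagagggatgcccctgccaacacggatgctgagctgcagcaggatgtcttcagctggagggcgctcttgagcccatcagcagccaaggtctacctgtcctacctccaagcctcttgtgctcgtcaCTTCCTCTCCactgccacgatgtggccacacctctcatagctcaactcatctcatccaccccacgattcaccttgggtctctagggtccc
BCL2L12: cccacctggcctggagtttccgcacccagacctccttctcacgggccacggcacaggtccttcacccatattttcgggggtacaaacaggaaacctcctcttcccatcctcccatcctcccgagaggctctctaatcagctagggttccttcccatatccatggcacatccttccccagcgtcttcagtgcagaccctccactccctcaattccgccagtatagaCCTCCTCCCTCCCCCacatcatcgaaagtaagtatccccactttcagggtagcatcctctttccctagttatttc
HPN: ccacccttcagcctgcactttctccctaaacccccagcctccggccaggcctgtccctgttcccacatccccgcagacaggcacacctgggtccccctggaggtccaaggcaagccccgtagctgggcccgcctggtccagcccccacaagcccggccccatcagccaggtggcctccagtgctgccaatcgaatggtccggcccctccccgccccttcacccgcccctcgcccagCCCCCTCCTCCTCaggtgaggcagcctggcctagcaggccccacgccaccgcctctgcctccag
MUC4 carried a purine run of 15 bases, LOC101929347 a pyrimidine run of 10, BCL2L12 a pyrimidine run of 15 and HPN a pyrimidine run of 13. Over all 34943 windows the median of the longest run was 11 bases.

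Several well-known microRNAs also lay inside wide regions of GATA6-AS TFR1. They were named after their positions had been seen, and no microRNA was measured in these samples. Of 1562 hairpins in the RefSeq table, 15 lay whole inside a GATA6-AS TFR1 region and 1, MIR6069 in TOM1, inside a MEG3 TFR1 region. Wide shared and narrow single-oligo regions held 31 and 66 for GATA6-AS TFR1 and 5 and 15 for MEG3 TFR1. Those sets cover more DNA. For GATA6-AS TFR1 they span 4.55 and 29.6 Mb against 2.36 Mb, and for MEG3 TFR1 1.64 and 24.7 Mb against 0.946 Mb. A region at chr19:13835501-13837050, with a log2 ratio of 0.86, held the whole miR-23a, miR-27a and miR-24-2 cluster. A second at chr19:13874701-13876200, with a log2 ratio of 1.11, held miR-181d and all but the first bases of the miR-181c hairpin. Their main mature forms are printed with the seed, bases 2 to 8, in capitals.
hsa-miR-23a-3p: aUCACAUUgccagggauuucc
hsa-miR-27a-3p: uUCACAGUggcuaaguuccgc
hsa-miR-24-3p: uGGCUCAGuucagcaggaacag
hsa-miR-181c-5p: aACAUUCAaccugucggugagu
hsa-miR-181d-5p: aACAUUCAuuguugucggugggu
The miR-181c-5p and miR-181d-5p sequences share a seed. The region at chr9:136669951-136670950 in EGFL7, a gene of blood vessel cells, held the hairpin of miR-126, an endothelial microRNA, with a log2 ratio of 1.51.

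The counts that follow are set by the rule and are a description. The regions made up 0.913% of the 89739 captured MEG3 TFR1 regions, 0.0748% of the 73546 MEG3 TFR2 regions and 1.85% of the 104786 GATA6-AS TFR1 regions, and covered 0.946, 0.0616 and 2.36 Mb. The MEG3 TFR2 list held few wide regions of any kind, 376 against 2144 for MEG3 TFR1 and 5346 for GATA6-AS TFR1. Width and overlap with the other lists were the measured values the regions were chosen by. Of the wide regions, 38.2% (95% Wilson interval 36.2% to 40.3%) were listed for MEG3 TFR1 alone, 14.6% (11.4% to 18.6%) for MEG3 TFR2 alone and 36.3% (35.1% to 37.6%) for GATA6-AS TFR1 alone. These intervals, here and below, cover counting error only. Regions under 1000 bp were listed for a single oligo more often, in 73.5%, 64.7% and 73.8% of cases. A long region meets another more easily than a short one, so the same share was also taken with the midpoint alone. By midpoint 64.1%, 32.2% and 67.6% of wide regions lay outside every region of the other oligos, against 81.9%, 70.4% and 81.7% of narrower regions.

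**Figure D1:**
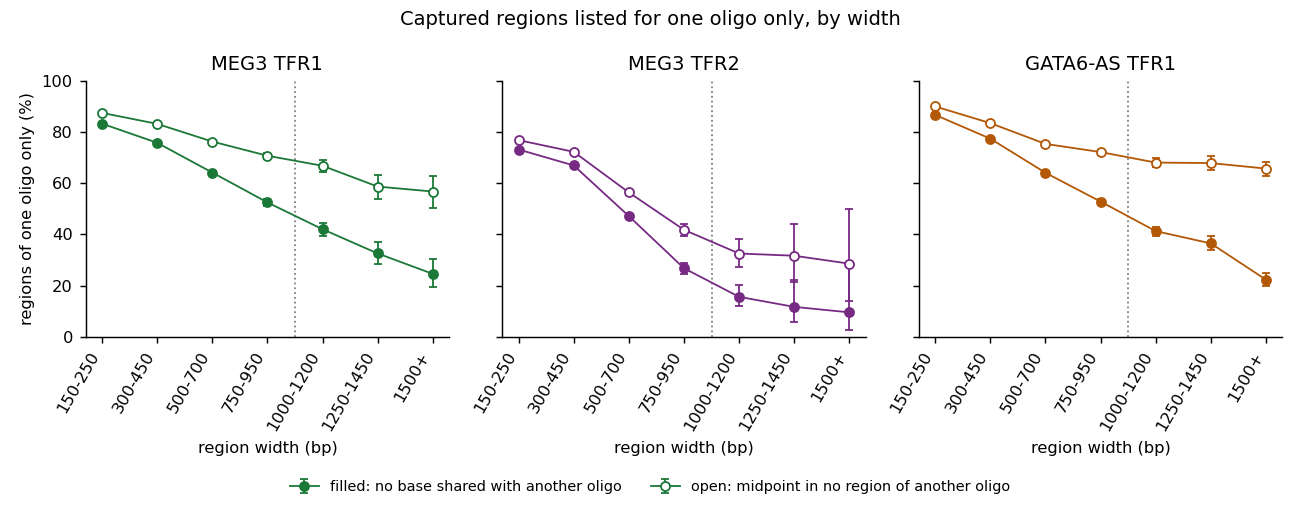
Share of captured regions listed for a single oligo (vertical axis, %) by region width in bp (horizontal axis), for each oligo. Filled points count regions that share no base with another oligo and open points those whose midpoint lies in no region of another oligo, bars are 95% Wilson intervals, and the dotted line marks 1000 bp. By shared bases the share for MEG3 TFR1 is 83.3% at 150 to 250 bp and 24.6% from 1500 bp on, and for MEG3 TFR2 it is 73.2% and 9.52%.

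Most of the regions were only just wide enough. Median widths were 1100 bp for MEG3 TFR1, 1050 bp for MEG3 TFR2 and 1150 bp for GATA6-AS TFR1, and the widest spanned 3650, 1650 and 3500 bp. At the threshold, 227 MEG3 TFR1 regions of 1000 bp were in and 282 of 950 bp were out, with median log2 ratios of 1.04 and 1.01. For MEG3 TFR2 the counts were 19 in and 18 out (1.13 and 1.08), and for GATA6-AS TFR1 375 in and 498 out (1.18 and 1.16). Regions of 1500 bp or more numbered 58, 2 and 245.

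Enrichment in the wide single-oligo regions was moderate. The authors' deposited log2 ratio had a median of 1.04 for MEG3 TFR1, with quartiles of 0.80 and 1.32 and a range of 0.29 to 3.54. For MEG3 TFR2 the median was 1.14, the quartiles 0.98 and 1.40 and the range 0.59 to 3.42. For GATA6-AS TFR1 the median was 1.20, the quartiles 0.96 and 1.45 and the range 0.46 to 3.11. Wide regions shared with another oligo had higher medians, 1.24, 1.25 and 1.30. Narrow regions of a single oligo had 1.42, 1.43 and 1.35. Ratios under 1 were found in 45.3% of wide single-oligo MEG3 TFR1 regions, 34.5% of those of MEG3 TFR2 and 29.1% of those of GATA6-AS TFR1, against 27.5%, 23.1% and 19.1% of wide shared regions. Across the wide single-oligo regions width and ratio were hardly related, with Spearman's rho of -0.01 over 819 regions, 0.25 over 55 and 0.06 over 1942, where each value comes from the same libraries as the region's call. These regions cover only widths from 1000 bp up. Over all captured regions of each list rho was -0.5, -0.42 and -0.37.

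**Figure D2:**
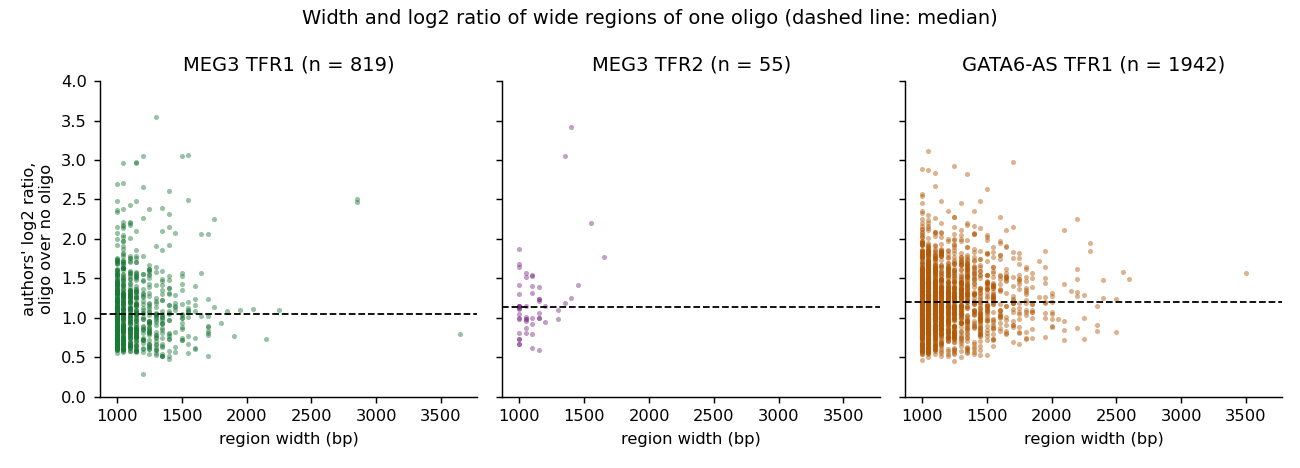
Width in bp (horizontal axis) and the authors' log2 ratio of oligo over no oligo (vertical axis) of each wide single-oligo region, 1 point per region. The dashed lines mark medians of 1.04, 1.14 and 1.20, and most points lie between 1000 and 1500 bp in all 3 lists.

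Few of the regions stood far from captures of the other oligos. The nearest region of another oligo lay at a median distance of 1750 bp from a MEG3 TFR1 region, 1300 bp from a MEG3 TFR2 region and 1400 bp from a GATA6-AS TFR1 region. It lay within 1000 bp for 36.5%, 38.2% and 40.3% of them, and beyond 10000 bp for 10.6%, 7.27% and 3.86%. The MEG3 TFR2 region at chr12:130091001-130092350 even touched a region of another oligo without sharing a base. Wide single-oligo GATA6-AS TFR1 regions were more often near each other: 26.3% had another within 10000 bp, against 3.79% for MEG3 TFR1 and none of 55 for MEG3 TFR2. The sets differ in size, 1942, 819 and 55 regions, and a member of a larger set meets another more easily. Captured regions of any kind from the same list were also denser there, with a median of 6 others within 10000 bp for GATA6-AS TFR1. For each MEG3 oligo that median was 2.

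Regions of GATA6-AS TFR1 lay at the ends of genes more often than those of MEG3 TFR1. A region was called at the gene edge when it overlapped the DNA up to 1 kb on either side of a protein-coding gene's start or far end, a property the rule did not use. That held for 489 of 1942 GATA6-AS TFR1 regions (25.2%, 95% Wilson interval 23.3% to 27.2%), 65 of 819 MEG3 TFR1 regions (7.94%, 6.28% to 9.99%) and 5 of 55 MEG3 TFR2 regions (9.09%, 3.95% to 19.6%). By this overlap the GATA6-AS TFR1 share was above those of MEG3 TFR1 and MEG3 TFR2. Regions are not replicates, so the intervals are no test between oligos or sets. Of wide shared regions 27.5% (26% to 29%) lay at an edge for GATA6-AS TFR1, 15.7% (13.8% to 17.8%) for MEG3 TFR1 and 19.6% (15.7% to 24.3%) for MEG3 TFR2. The MEG3 TFR1 interval alone did not meet that of the wide single-oligo regions of its list. Narrow single-oligo regions did so less often by overlap, in 12%, 5.26% and 4.23%. A wide region overlaps an edge more easily, and by midpoint the MEG3 TFR1 share was 4.52% (3.29% to 6.17%), close to the 4.44% of its narrow single-oligo regions. By midpoint the GATA6-AS TFR1 share stayed above that of its narrow regions, at 17.8% (16.2% to 19.6%) against 10.4%, and near the 18.1% of its wide shared regions. The MEG3 TFR2 share by midpoint was 7.27% (2.86% to 17.3%), a wide interval over only 55 regions.

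The edge regions of GATA6-AS TFR1 divided evenly between the start and the far end of genes. Where RefSeq gave a strand, 173 of the 489 lay at a start only, 168 at a far end only and 49 at both, and 99 could not be placed. Among the narrow single-oligo regions at an edge, 50.6% lay at a start only and 25.4% at a far end only, against 35.4% and 34.4% of the wide ones. Its wide shared regions at an edge were close to the latter, with 33.5% and 34.8%. For MEG3 TFR1 27 of 65 lay at a start only and 26 at a far end only. A transcription start itself fell inside 161 GATA6-AS TFR1 regions (8.29%), 27 MEG3 TFR1 regions (3.30%) and no MEG3 TFR2 region, as far as RefSeq gave starts. In the same order the shares were 8.34%, 4.30% and 2.80% of wide shared regions and 2.49%, 1.31% and 0.73% of the whole lists. By midpoint 61.1% of the GATA6-AS TFR1 regions lay inside a protein-coding gene away from its ends and 15.4% between genes. For MEG3 TFR1 those shares were 55.2% and 29.9%, and for MEG3 TFR2 33 of 55 and 27.3%. Genes that hosted a wide single-oligo region had a median length of 31.7 kb for GATA6-AS TFR1, 73.6 kb for MEG3 TFR1 and 65.2 kb for MEG3 TFR2. In the same order, narrow single-oligo regions had hosts of 78.7, 122 and 137 kb, and wide shared regions 29.9, 36.0 and 33.0 kb.

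In genes, the regions were counted over 19974 protein-coding genes. An edge region of GATA6-AS TFR1 was present for 600 genes, 3.00% of all. For MEG3 TFR1 there were 72 genes, 0.360%, and for MEG3 TFR2 7 genes, 0.0350%. With the gene body and 1 kb to each side, the counts were 1384 genes for GATA6-AS TFR1 (6.93%), 492 genes for MEG3 TFR1 (2.46%) and 40 genes for MEG3 TFR2 (0.200%). Most such genes held a single region: 1121 of 1384, 466 of 492 and all 40.

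Of the 8 widest MEG3 TFR1 regions, 5 lay in genes and 3 overlapped none. The widest of all, 3650 bp at chr21:10721051-10724700, overlapped no gene of the RefSeq table and had a log2 ratio of 0.80. A second from the same stretch, chr21:10729901-10732050, spanned 2150 bp at 0.73. In TCHH, which encodes trichohyalin of the hair follicle, the region chr1:152109101-152111950 spanned 2850 bp at a log2 ratio of 2.5, a 5.67-fold difference. A region of the same width at chr19:24179201-24182050, with no RefSeq gene, had 2.47. EVPL, which encodes envoplakin of the skin barrier, held 2050 bp at 1.12. The other wide ones lay in SRP14-DT, a noncoding gene (2250 bp, 1.10), DENND1A, which encodes an activator of RAB35 (1950 bp, 1.10), and ERGIC3, which encodes a cargo protein between endoplasmic reticulum and Golgi (1900 bp, 0.77).

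The highest ratios of MEG3 TFR1 were found in narrower regions. At chr3:194736601-194737900, inside the noncoding gene LINC01968, the log2 ratio was 3.54, an 11.7-fold difference. SHISA9, which encodes an auxiliary protein of AMPA receptors, followed with 3.06 at chr16:13126251-13127800, 18000 bp from the nearest region of another oligo. GOLGA6L2, of the golgin-like family, also had 3.06, and a region without a gene at chr19:29015751-29016950 had 3.05. GOLGA6L2 has close family copies, and how reads that match several copies were counted is not stated in the sources at hand.

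The 55 MEG3 TFR2 regions were the narrowest and fewest. The widest, chr7:98547701-98549350, spanned 1650 bp between genes at a log2 ratio of 1.78. The next, chr8:350151-351700 and chr10:79459051-79460500, also lay between genes, with 1550 bp at 2.21 and 1450 bp at 1.41. In MUC4 the region chr3:195784051-195785450 spanned 1400 bp and had the highest ratio of the list, 3.42, a 10.7-fold difference. The region at chr12:130091001-130092350 was second with 3.04. PCBP2, which encodes an RNA-binding protein of poly(C) tracts, held 1350 bp at 1.18, and PPP2R2C, which encodes a regulatory subunit of the phosphatase PP2A, held 1000 bp at 1.87. A region of 1400 bp lay at chr17:36690051-36691450 in LOC105371750 with 1.25. At 1300 bp 2 regions were tied, chr17:6266101-6267400 between genes with 1.10 and chr1:160214401-160215700 at PEA15 with 0.98. The 7 genes with an edge region were PEA15, DCAF8, SLC61A1, ARHGEF25, RNF40, ZNF629 and RTP3, named after their values were seen. Their log2 ratios lay between 0.81 and 1.00, and PEA15 and DCAF8 shared 1 region, as did RNF40 and ZNF629.

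The 8 widest GATA6-AS TFR1 regions all lay in protein-coding genes, and all but those in CHD5, TYK2 and TCF3 reached a gene edge. CPSF1, which encodes a subunit of the cleavage and polyadenylation complex, held 3500 bp at chr8:144393651-144397150 with a log2 ratio of 1.57. CHD5, a chromatin remodeller, held 2600 bp at 1.49, and CORO1B, a regulator of actin, 2550 bp at 1.58. The region of 2500 bp at chr19:49663451-49665950 spanned parts of BCL2L12 and of IRF3, a transcription factor of the interferon response, and contained the BCL2L12 promoter printed above. AXIN1, the scaffold of beta-catenin destruction, also held 2500 bp, at a lower ratio of 0.82. BTBD2 and TYK2, a kinase of cytokine receptors, held 2400 bp each at 1.48 and 1.25, and TCF3, a basic helix-loop-helix factor, 2350 bp at 1.15.

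Among wide single-oligo regions the highest log2 ratio of GATA6-AS TFR1 lay below those of MEG3 TFR1, 3.54, and MEG3 TFR2, 3.42. It was 3.11, an 8.65-fold difference, in PTPN23, which encodes a phosphatase-like protein of endosomal sorting. SYCE1, of the synaptonemal complex, had 2.98 in a region of 1700 bp at its start. MUC2, the gel-forming mucin of the intestine, had 2.93, and GPR108 had 2.89 at its far end. Only 3.45% of the wide single-oligo GATA6-AS TFR1 regions had a log2 ratio of 2 or more, against 4.05% of its wide shared and 11.4% of its narrow single-oligo regions.

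Regions gathered in certain genes with GATA6-AS TFR1. GSE1, a gene of 507 kb on chromosome 16, held 10, with log2 ratios from 0.68 to 2.00. It held 143 captured regions of GATA6-AS TFR1 in all, against 86 of MEG3 TFR1, 1 of them a wide single-oligo region (0.68), and 46 of MEG3 TFR2. RXRA, which encodes the retinoid X receptor alpha, held 7 between 1.07 and 1.47. KCNQ1, a potassium channel gene with an imprinted noncoding RNA inside it, held 6 between 0.84 and 1.75. CORO7, which encodes a coronin of the Golgi, held 6 between 0.95 and 2.03, and these are the same regions as those of the overlapping read-through gene CORO7-PAM16. With MEG3 TFR1 no gene held more than 3. The 5 genes with 3 were SYN3, of the synapsins of synaptic vesicles, PKNOX2, a homeobox gene, CAMTA1, a calmodulin-binding transcription activator, TTC7A, and KCNIP1, a partner of potassium channels. SYN3 had log2 ratios of 1.56, 1.06 and 1.14, and CAMTA1 0.67, 1.91 and 0.61. SYN3 and CAMTA1 are 551 and 984 kb long, where the median protein-coding gene is 24.2 kb.

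The same gene could hold separate regions of different oligos. That was so for 86 genes with 2 oligos and for 1 gene with all 3, SLC6A17, a transporter of neutral amino acids in synaptic vesicles. In SLC6A17 the MEG3 TFR1 region lay at chr1:110188351-110189400, the MEG3 TFR2 region at chr1:110160301-110161400 and the GATA6-AS TFR1 region at chr1:110198051-110199150. Their log2 ratios were 1.29, 1.31 and 0.82. The 79 genes with regions of MEG3 TFR1 and GATA6-AS TFR1 were 16.1% of the MEG3 TFR1 genes and 5.71% of the GATA6-AS TFR1 genes. Those of MEG3 TFR1 and MEG3 TFR2 were 4, MUC4, PEA15, HK1 and SLC6A17, or 0.813% and 10.0% of the genes of each oligo. Over all protein-coding genes 2.46% held a MEG3 TFR1 region, 0.200% a MEG3 TFR2 region and 6.93% a GATA6-AS TFR1 region. Gene length was not adjusted for, and the comparisons share their no-oligo libraries. The counts of genes with several oligos are therefore given without further reading. In MUC4, MEG3 TFR1 had log2 ratios of 1.58 and 1.40 in its regions and MEG3 TFR2 3.42, and GATA6-AS TFR1 had none of its 17 captured regions there in this class.

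**Figure D3:**
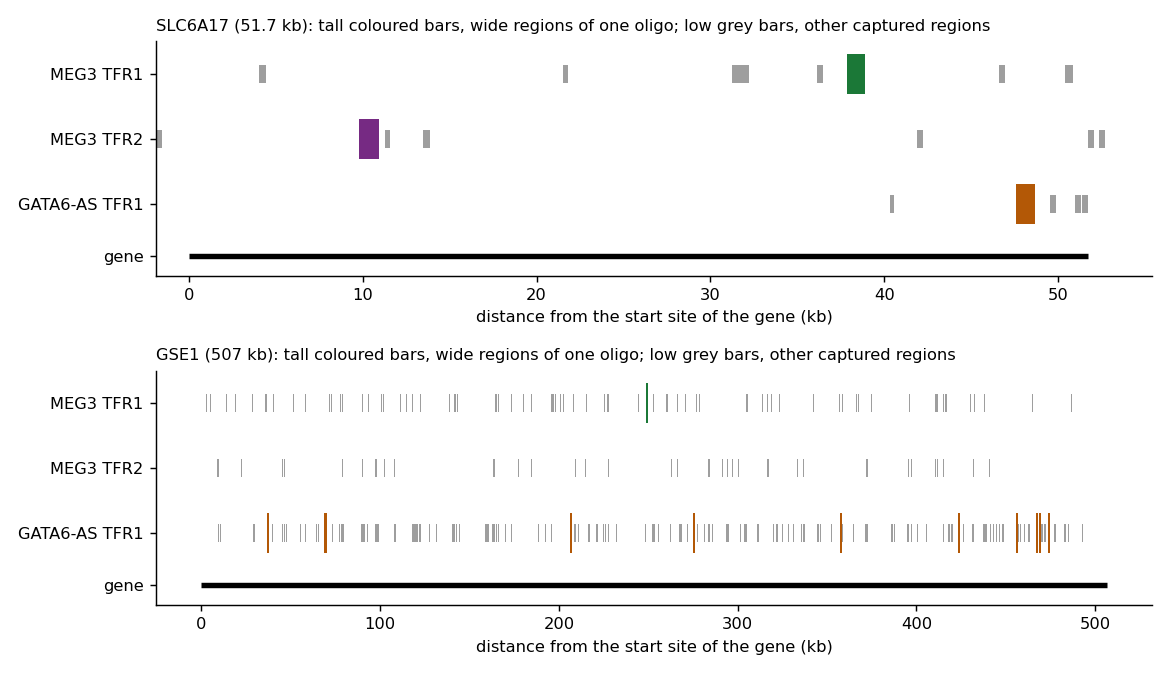
Captured regions along SLC6A17 (51.7 kb, upper plot) and GSE1 (507 kb, lower plot), by distance from the start site of the gene in kb (horizontal axis), with a row per oligo and the gene as a black bar. Tall coloured bars are wide single-oligo regions and low grey bars all other captured regions: SLC6A17 has 1 tall bar for each oligo, and GSE1 has 10 in the GATA6-AS TFR1 row, 1 in the MEG3 TFR1 row and none in the MEG3 TFR2 row.

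A few mucin genes, named here after their values were seen, held wide single-oligo regions, and MUC4 held those of both MEG3 oligos. GATA6-AS TFR1 had 5 in MUC5B, 4 in MUC2 and 1 in MUC6, which lie together on chromosome 11, and none in their neighbour MUC5AC despite 14 captured regions there. MEG3 TFR1 had 2 in MUC4 and 1 in MUC16, and MEG3 TFR2 1 in MUC4. Most mucin genes held none, among them MUC3A with 8 captured regions of MEG3 TFR1, 10 of MEG3 TFR2 and 9 of GATA6-AS TFR1. Of all protein-coding genes 6.93% held a wide single-oligo region of GATA6-AS TFR1, 2.46% of MEG3 TFR1 and 0.200% of MEG3 TFR2. Mucin genes contain long tandem repeats, and the sources at hand do not state how reads in repeats were placed.

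By chromosome, the sets of the 3 oligos differed. GATA6-AS TFR1 had 372 of its 1942 regions on chromosome 19 (19.2%, 95% Wilson interval 17.5% to 21%), where 20.6% of its wide shared regions and 8.01% of all its captured regions lay. Chromosome 19 was thus as prominent among wide shared regions as among wide single-oligo ones. Chromosome 16 held 10.8% (9.46% to 12.2%) of the wide single-oligo regions, against 6.08% of the wide shared regions, and chromosome 9 6.13% (5.14% to 7.28%) against 3.29%. MEG3 TFR1 had 12.5% (10.4% to 14.9%) of its regions on chromosome 1, against 8.98% of its wide shared regions and 11.5% of its whole list. Of the 55 MEG3 TFR2 regions, 13 lay on chromosome 17 (23.6%), where 64 of its 321 wide shared regions and 5.83% of its whole list lay. The interval of that share, 14.4% to 36.4%, is wide. These 13 were spread over the chromosome, 9 of them inside protein-coding genes such as B9D1, a gene of the ciliary transition zone, CAVIN1, which encodes a caveola coat protein, and SDK2, a synaptic adhesion gene.

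**Figure D4:**
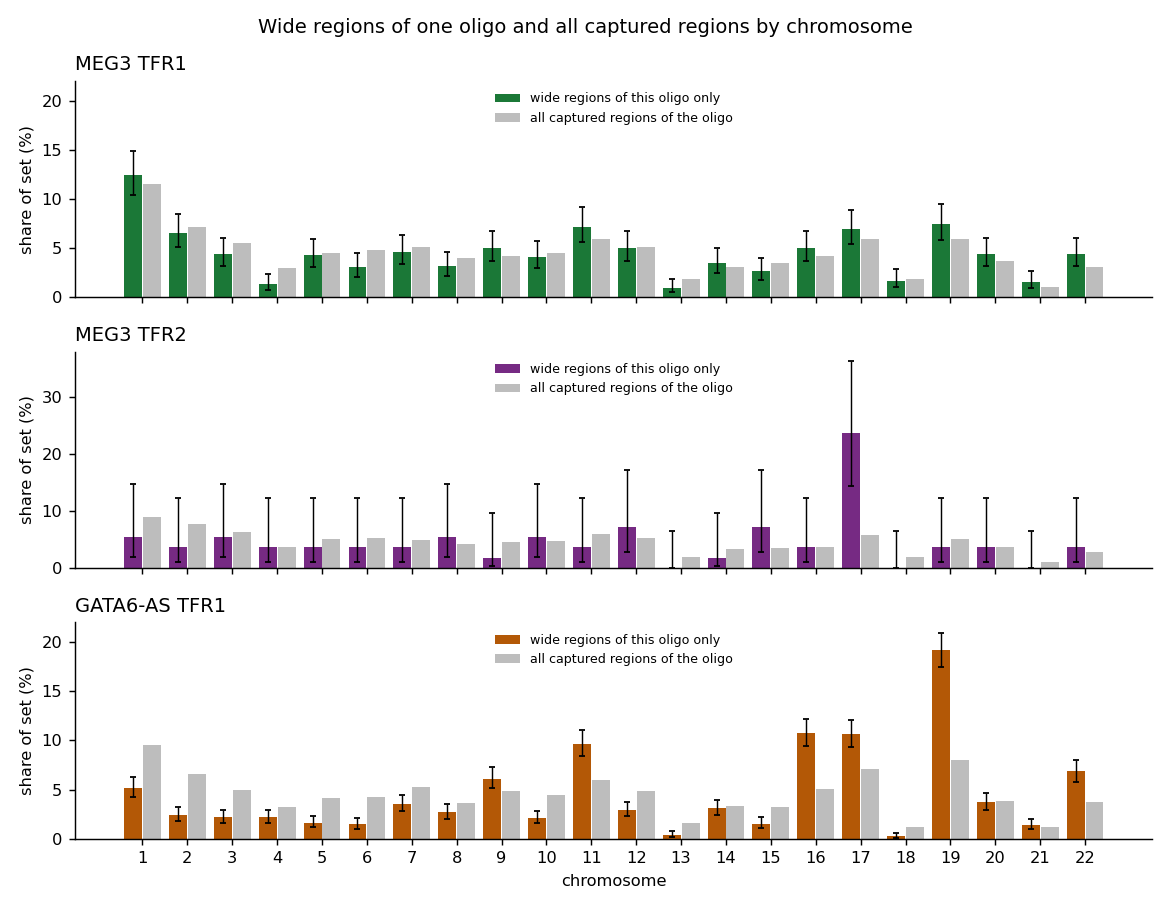
Share (vertical axis, %) of each oligo's wide single-oligo regions (coloured bars, with 95% Wilson intervals) and of all its captured regions (grey bars) on each autosome (horizontal axis). GATA6-AS TFR1 stands at 19.2% against 8.01% on chromosome 19, and MEG3 TFR2 at 23.6% against 5.83% on chromosome 17.

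Wide single-oligo regions of GATA6-AS TFR1 were gathered near chromosome ends. Within 5 Mb of an end lay 756 of 1942 (38.9%), against 23.6% of its wide shared regions, 19.9% of its narrow single-oligo regions and 19.9% of its whole list. Ends were taken from the first base of the chromosome and the last region in any list, and for chromosomes 13, 14, 15, 21 and 22 only the far end was used. Leaving out each chromosome in turn gave 36.2% (without chromosome 16) to 40.2% (without chromosome 22). Of the regions captured 1 to 2 Mb from an end, 4.53% (95% Wilson interval 4.03% to 5.10%) were wide and of GATA6-AS TFR1 alone, against 1.06% (0.953% to 1.18%) of those beyond 40 Mb. Wide shared regions varied less over the same range, 4.19% and 2.62%. The ends of chromosomes 4, 8 and 9 were examples, with 33 of 43, 38 of 52 and 72 of 119 regions in the outer 5 Mb, whereas chromosome 3 had 1 of 43. For MEG3 TFR1 12.8% of the wide single-oligo regions lay in the outer 5 Mb, against 14.7% of the wide shared and 11.6% of the narrow single-oligo regions. For MEG3 TFR2 the shares were 12.7%, 9.66% and 9.39%.

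**Figure D5:**
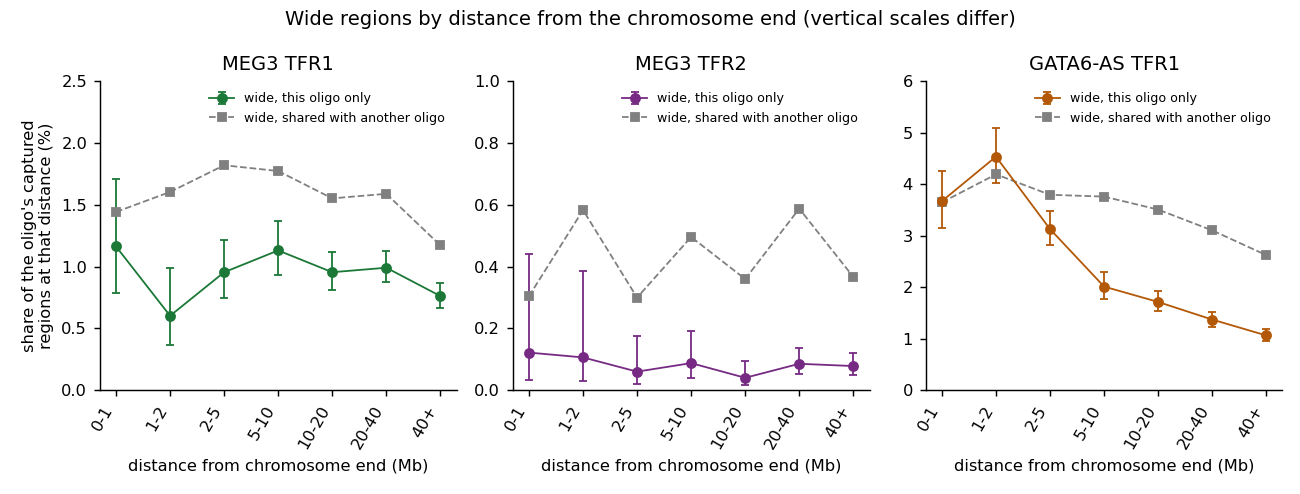
Wide regions as a share of all captured regions of the oligo (vertical axis, %, with a different scale in each plot) by distance from the chromosome end in Mb (horizontal axis). Coloured points are wide single-oligo regions with 95% Wilson intervals and grey squares are wide shared regions: for GATA6-AS TFR1 the coloured points are at 3.67% in the outermost 1 Mb and 1.06% beyond 40 Mb, and the grey squares at 3.65% and 2.62%.

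The regions were unevenly spread over stretches of 1 Mb. For GATA6-AS TFR1 the densest was at 1 to 2 Mb of chromosome 19, with 30 regions among 398 captured ones. Next were 136 to 137 Mb of chromosome 9 with 29 among 360 and the first Mb of chromosome 16 with 28 among 260. Over the whole lists 1.85% of captured GATA6-AS TFR1 regions and 0.913% of MEG3 TFR1 regions were of this class. For MEG3 TFR1 the densest was at 10 to 11 Mb of chromosome 21, beside the centromere, with 9 wide single-oligo regions among only 57 captured ones. How reads that match several places were counted in that stretch is not stated in the sources at hand. No 1-Mb stretch held more than 2 MEG3 TFR2 regions.

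The gene lists covered developmental control, signalling, imprinting, synapses, matrix, chromatin and ribosomes, 9 lists of 26 to 63 genes. They had been chosen with earlier results of these data known. For GATA6-AS TFR1, a gene with a region in its body or within 1 kb is read against 6.93% of all protein-coding genes. Synaptic adhesion and channel genes had 11 of 32 (34.4%), but these genes are long, with a median of 395 kb. Per Mb of gene they had 1.10 regions, against 1.37 over all genes, where a region counts once for each gene it meets. NLGN2, a neuroligin, had 3 regions with log2 ratios of 1.73, 1.34 and 0.98. CACNA1H, a T-type calcium channel, had 4 between 1.07 and 1.68, and its edge region of 1450 bp at chr16:1221301-1222750 was the widest of the list. MEG3 TFR1 had 7 of the 32 (21.9%), among them GRIK4, CACNA1C and CACNA1A. The list had 0.551 MEG3 TFR1 regions per Mb of gene, against 0.404 over all genes.

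Collagen genes had 9 of 32 (28.1%) with GATA6-AS TFR1, and 3.08 regions per Mb of gene against 1.37 over all genes. COL1A1, the main collagen of bone and skin, had a region of 1400 bp at chr17:50199851-50201250 at its edge with a log2 ratio of 2.07, and COL6A2 had 2 regions at 1.68 and 2.02. MEG3 TFR1 had 3 of the 32 (9.38%, against 2.46% of all genes), COL26A1 (0.86), COL5A1 (1.97) and COL5A3 (0.85). Per Mb of gene the list had 0.660 MEG3 TFR1 regions, against 0.404 over all genes. MEG3 TFR2 had 1 of the 32, COL27A1 (1.15). That was the only gene of the 9 lists with a MEG3 TFR2 region, where 0.200% of all genes had one.

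Imprinted genes had 7 of 27 (25.9%) with GATA6-AS TFR1. Per Mb of gene they had 8.47 regions, against 1.37 over all genes. Much of that came from KCNQ1 with 6 regions and TP73 with 3, and a region shared by 2 genes counts for each. The genes included IGF2, a fetal growth factor, at 1.44, and GNAS, which encodes the stimulatory G protein alpha subunit, at 1.65. TP73, of the p53 family, had its 3 regions at 0.81, 1.95 and 0.86. PEG3 and ZIM2 overlap and shared 1 region at 1.51. RTL1, a gene derived from a retrotransposon, had the widest edge region of the list, 1250 bp at chr14:100878851-100880100 with 1.51. It lies in the imprinted domain of MEG3, and its region was of the GATA6-AS TFR1 list. MEG3 TFR1 had 1 of the 27, GRB10, an adaptor of insulin signalling, at 0.87.

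GATA6-AS TFR1 had regions in 3 of 63 developmental transcription factors (4.76%), namely NKX2-2 at 2.48, TBX1 at 0.86 and LHX9 at 1.07 with an edge region of 1250 bp. These genes are short, with a median of 6.80 kb, and had 2.75 regions per Mb of gene, against 1.37 over all genes. GATA6 itself had none. HOX genes had 4 of 39 (10.3%), but HOXC4, HOXC5 and HOXC6 shared a single region, chr12:54018101-54019150 at 2.01, and HOXB3 had the other at 0.83. Per Mb of gene the HOX genes, with a median of 3.79 kb, had 12.8 regions, against 1.37 over all genes. That value counts the shared region once for each of its genes, so it rests on these few regions. Among 26 pluripotency genes GATA6-AS TFR1 had 2 (7.69%), and 2.84 regions per Mb of gene. They were LIN28A, a regulator of let-7 microRNAs, with an edge region of 1450 bp at 1.35, and TFCP2L1 at 1.00. MEG3 TFR1 had ESRRB at 0.63.

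TGF-beta and BMP signalling genes, to which MEG3 has been linked, had 2 of 46 (4.35%) with MEG3 TFR1, against 2.46% of all genes, and none with MEG3 TFR2. GDF11, a ligand of the family, had a region of 1150 bp at chr12:55741951-55743100 at its edge with a log2 ratio of 2.48, a 5.59-fold difference. LTBP2, which encodes a matrix protein of the latent TGF-beta binding family, had 0.76. With GATA6-AS TFR1 there were 4 of 46 (8.70%): ACVR2B, an activin receptor, at 1.64, LTBP4 at 1.64, LTBP2 at 1.16 and SKI, a repressor of SMAD proteins, at 1.05. Per Mb of gene the list had 0.529 MEG3 TFR1 regions and 1.06 GATA6-AS TFR1 regions, against 0.404 and 1.37 over all genes.

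Chromatin regulator genes had 4 of 36 (11.1%) with GATA6-AS TFR1. KMT2A, a histone H3 methyltransferase, had the widest edge region, 1500 bp at chr11:118437351-118438850 with 1.10. KDM6B, a demethylase of H3, had 3 regions at 0.84, 2.28 and 0.63, and CBX2, a Polycomb gene, had 1 at 0.74. MEG3 TFR1 had 1 of 36 (2.78%), KMT2D at 1.78. Per Mb of gene the list had 1.915 GATA6-AS TFR1 regions and 0.2735 MEG3 TFR1 regions, against 1.37 and 0.404 over all genes. Of 40 ribosomal protein genes 1 had a GATA6-AS TFR1 region, where 6.93% of all genes had one. These genes are short, with a median of 5.34 kb, and had 4.05 regions per Mb of gene, against 1.37 over all genes. That value rests on 1 region.

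The promoters inside these regions were compared with all RefSeq windows. The 153 windows in GATA6-AS TFR1 regions had a median GC content of 63.7% and a median CpG ratio, observed over expected, of 0.51, against 58.7% and 0.58 over all 34943 windows. The 23 windows in MEG3 TFR1 regions had 58.7% and 0.27. A purine or pyrimidine run of 15 bases or more was present in 28.1% of the GATA6-AS TFR1 windows and 30.4% of the MEG3 TFR1 windows, against 19.9% of all windows. Other windows captured by the same oligos held such runs too: 32.6% of those in wide shared and 26.1% in narrow single-oligo GATA6-AS TFR1 regions, and 57.4% and 45% for MEG3 TFR1. Letters were searched on both strands, and the motifs GGAGGA and GGGAGG can overlap each other. GAGAGA was in 22.9% of the GATA6-AS TFR1 windows and 39.1% of the MEG3 TFR1 windows, against 22.4% of all. GGAGGA was in 43.1% and 60.9%, against 36.6% of all, and GAAGAA in 19% and 47.8%, against 19.8%. GGGAGG was in 73.2% and 65.2%, against 49.2% of all, and GGGCGG in 68.6% and 30.4%, against 44.9%. Windows in wide shared and narrow single-oligo GATA6-AS TFR1 regions were similar in GC content, with medians of 63.7% and 62.3%. They held GGGAGG in 77.5% and 71.9% and GGGCGG in 61.59% and 62.25%. The CpG ratio of 0.51 lay between theirs. For MEG3 TFR1 those sets had CpG ratios of 0.29 and 0.32 and GGGCGG in 44.7% and 28.1%, but GAAGAA less often, in 14.9% and 29.2%. Windows of a gene can overlap each other, and the MEG3 TFR1 shares rest on 23 windows. A match is a description of the letters and shows no binding site.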

How the data were processed

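The 8 libraries came from 2 independent experiments per group, made with DNA sonicated to 200 to 300 bp, per the labels' protocols. FastQC and BWA 0.7.15-r1140 with build hg38 were used, per the submitters' processing notes. Which program called the regions, with which settings and library scaling, is not given in the sources used here. Each of the 6 deposited lists holds regions in steps of 50 bp, from 150 bp up, with 1 log2 ratio of oligo over no oligo per region, made by the authors, above 0 for captured and below 0 for control regions. The log2 base of these deposited ratios was inferred from the values. A list has no value per library, so depth is unknown and no test over samples was run. The lists were used as deposited, with coordinates printed from 1.

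Regions of 1000 bp or more without a shared base were taken from the 3 captured lists, and the rule was checked on simulated lists. Genes, promoter windows and hairpins came from RefSeq tables on GRCh38.p14, the same primary sequence as hg38. The tables hold 19974 protein-coding genes on the chromosomes used, 79.2% of them with a strand. Promoter windows of chromosome 8 were not used here. Positions were taken by overlap, and by midpoint where width matters. Shares have 95% Wilson intervals. Python 3.11.15, numpy 2.4.6, pandas 2.3.3, scipy 1.17.1 and matplotlib 3.10.9 were used.

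The regions and gene lists were chosen with earlier results of these data known. Genes named were, per oligo, the 8 widest regions, the 4 of highest ratio and the 5 protein-coding genes with the most regions, the gene with the widest edge region of each list, and genes with all 3 oligos. Other genes of the lists were named as examples after their values were seen. Values of some listed genes are not reported here.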

Additional observations from a re-analysis of the deposited data

Results flagged for a closer look

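A few wide single-oligo regions met DNA that another oligo's comparison had listed in the opposite direction, among the control regions with more signal without the oligo. These control lists entered no comparison above. For MEG3 TFR1 this was so for 26 regions that met a control region of GATA6-AS TFR1 (3.17%, 95% Wilson interval 2.18% to 4.61%), against 2.57% of the wide shared and 0.547% of the narrow single-oligo MEG3 TFR1 regions. The median log2 ratio of the 26 was 0.76 for MEG3 TFR1, and that of the control regions met was -1.05 for GATA6-AS TFR1. Of the 26, 10 lay on chromosome 21, among them the widest MEG3 TFR1 region, chr21:10721051-10724700. Another 8 overlaps of MEG3 TFR1 regions were with MEG3 TFR2 control regions (0.977%, against 1.89% of the wide shared and 0.132% of the narrow ones), and 7 regions met control regions of both other oligos. GATA6-AS TFR1 had 11 regions that overlapped a MEG3 TFR1 control region, for example in BEST2, EMID1 and DUSP22, and 4 that overlapped a MEG3 TFR2 control region, in 1 case in MAP2K3. For GATA6-AS TFR1 that was 0.566% and 0.206%, against 0.441% and 0.617% of its wide shared regions. No MEG3 TFR2 region of this class met a control region. A wide region meets another more easily than a narrow one, and all comparisons share the no-oligo libraries.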

How the results depend on the processing

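Each value was recomputed with another width, another overlap rule, joined regions, a ratio filter and without chromosome 1. The midpoint and chromosome-end settings were chosen after seeing the data. The order of oligos in the number of regions, GATA6-AS TFR1 then MEG3 TFR1 then MEG3 TFR2, held in each of these settings. Where 3 values stand together, they belong to MEG3 TFR1, then MEG3 TFR2, then GATA6-AS TFR1. A width of 800 bp gave 2655, 305 and 4835 regions, single-oligo shares of 45.8%, 21.4% and 44.0%, and for GATA6-AS TFR1 a median ratio of 1.17, 22.5% at a gene edge and 35.1% in the outer 5 Mb. A width of 1500 bp gave 58, 2 and 245 regions, shares of 24.6%, 9.52% and 22.3% and edge shares of 10.3%, 0% and 29.8%. There the median ratio was 1.99 with MEG3 TFR2 and 1.26 with GATA6-AS TFR1, and the outer 5 Mb held 50.0% and 42.9%, with only 2 MEG3 TFR2 regions. Requiring no other oligo within 1000 bp gave 530, 36 and 1178 regions and shares of 24.7%, 9.57% and 22%. The edge share was then 6.23% for MEG3 TFR1 and 2.78% for MEG3 TFR2, and GATA6-AS TFR1 had a median of 1.17 and 43.2% in the outer 5 Mb. An overlap of 0.5 of the shorter region gave shares of 44.8% for MEG3 TFR1 and 40.3% for GATA6-AS TFR1, and midpoints gave 64.1%, 32.2% and 67.6%. Joining regions within 200 bp gave medians of 1.12, 1.24 and 1.25, and 113 MEG3 TFR2 regions. A ratio of 1 or more in every list gave 544 MEG3 TFR1 regions, with a median of 1.27 and 10.3% at an edge. For GATA6-AS TFR1 it gave a median of 1.31, a share of 38.6% and 27.2% at an edge, and for MEG3 TFR2 a share of 21.9%. An edge of 5 kb gave 26.7%, 30.9% and 52.0%, and by midpoint the edge share was 4.52% for MEG3 TFR1 and 17.8% for GATA6-AS TFR1. The outer 2 Mb held 4.88% of MEG3 TFR1 and 22% of GATA6-AS TFR1 regions, and the outer 10 Mb 25.5% and 50.4%. Leaving out chromosome 1 moved no value beyond its interval.

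No paired analysis was possible because a list gives no value for a library, and for that reason no replicate was left out. Read depth, the error of a ratio and the agreement of the libraries are unknown. A width is that of the authors' call, and absence from another oligo's list means that no region was called there, not that no DNA was captured. The cause of the shifts with width and ratio was not tested.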
